A study of Homo sapiens with 2 samples.

Results

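The 427 oestrogen receptor α (ERα) peaks of the long arm of human chromosome 8, 8q, are described here. They are the rows of the deposited hg19 peak list that lie on chromosome 8 and start above position 46800000, and they make up 427 of the 12688 peaks listed, or 3.37%. The short arm, 8p, taken as rows that end below 43900000, held 197 peaks, and no peak of chromosome 8 lay between the bounds. The study used T47D, a widely used line of human breast cancer cells that express the receptor. ERα was immunoprecipitated with the H-20 antibody from cells exposed to 10 nM 17β-estradiol for 45 min after 48 h without steroids, and the input was DNA of estradiol-treated T47D cells with no antibody. There was 1 library of each kind and 1 peak list of ERα over input, and no untreated library was analysed here. Values therefore carry no replicate error and no test across samples, and all of them describe occupancy after estradiol. Read depth is unknown from the list.

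ERα is a nuclear receptor that binds DNA once an oestrogen such as estradiol occupies it. Its binding sites in breast cancer cells mostly lie away from gene starts, and often several of them lie close together around a regulated gene. The long arm of chromosome 8 is often gained in breast tumours. It carries MYC, an oncogene that oestrogen induces, and its neighbour PVT1, a long non-coding RNA gene, in band 8q24.21. It also carries GRHL2, an epithelial transcription factor gene, and KLF10, an oestrogen-inducible zinc finger gene, in 8q22.3, and TRPS1, a GATA-type repressor gene, in 8q23.3. These gene positions are general knowledge at the level of the band. No hg19 gene annotation was used here, so no peak is assigned to a gene.

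Per Mb of whole length, ERα peaks were about as dense on 8q as on 8p and on the rest of the genome. The length of the rest includes centromeres and any other stretch where no peak could be called. The long arm held 4.29 peaks per Mb (exact Poisson 95% interval 3.89 to 4.72), 8p held 4.49 (3.88 to 5.16), and chromosomes 1 to 22 and X without 8q held 4.16 (4.09 to 4.24). The ratio of 8q to 8p was 0.956, with an exact 95% interval from 0.805 to 1.14, and that of 8q to the rest was 1.03 (0.934 to 1.14). With peaks joined where their edges were at most 10 kb apart, 8q had 331 regions and 8p had 138, and the ratio was then 1.06 (0.865 to 1.30). Leaving peak-free stretches of over 2 Mb out of the lengths cut 8q to 83.1 Mb and 8p to 28.6 Mb. The ratio to 8p was then 0.745 (0.628 to 0.887), an interval that excludes 1, and that to the rest 0.923 (0.836 to 1.02). Those stretches were chosen by the absence of peaks in this same list, which raises the density of the part with more empty length. These ratios therefore do not show that 8q is less dense. Every interval given here allows for counting error alone and takes the peaks to be independent, although neighbouring ones are not. Copy number of either arm was not measured here.

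Along 8q the peaks were unevenly spread, in dense and sparse blocks. The telomeric 49.8 Mb of the arm held 284 peaks and the centromeric 49.8 Mb held 143, a ratio of 1.99 (exact 95% interval 1.62 to 2.45). Counted in 10 segments of up to 10 Mb from the centromeric bound, the arm was densest from 96800001 to 106800000, with 83 peaks or 8.30 per Mb (6.61 to 10.3). The segments from 126800001 to 136800000 and from 116800001 to 126800000 followed with 70 and 69 peaks. In the centromeric stretch, 1 segment stood above the others, from 66800001 to 76800000, with 59 peaks or 5.90 per Mb (4.49 to 7.61). The sparsest segment, from 76800001 to 86800000, held 15 peaks, or 1.50 per Mb (0.840 to 2.47). The last segment, which ends at the telomere, held 39 peaks, or 4.08 per Mb (2.90 to 5.57), so density did not climb all the way to the chromosome end.

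By cytogenetic band, 8q13.1 was the densest, with 27 peaks in 2.0 Mb or 13.5 per Mb (8.90 to 19.6). Band 8q24.21, where MYC and PVT1 lie, came next with 51 peaks or 12.1 per Mb (9.04 to 16.0), and 8q22.3, where GRHL2 and KLF10 lie, had 46 peaks or 10.0 per Mb (7.32 to 13.3). The intervals of these 3 bands overlap, so their order is not settled by these counts. Band 8q23.3, where TRPS1 lies, had 29 peaks, or 5.18 per Mb (3.47 to 7.44). Band 8q13.3, home of the receptor coactivator gene NCOA2, held 3 peaks in 3.40 Mb, or 0.882 per Mb (0.182 to 2.58). Of 28 bands, 1 held no peak: 8q24.23, for which 0 peaks in 3.50 Mb allow up to 1.05 per Mb by the exact Poisson bound. Giemsa staining divides the arm into light bands, which are richer in genes as a rule, and dark bands. The light bands of 8q held 4.95 peaks per Mb (4.33 to 5.63) and its dark bands 3.78 (3.27 to 4.35), a ratio of 1.31 (1.08 to 1.59). On 8p the ratio was 2.22 (1.65 to 3.03), with 6.53 per Mb in light and 2.94 in dark bands.

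**Figure D1:**
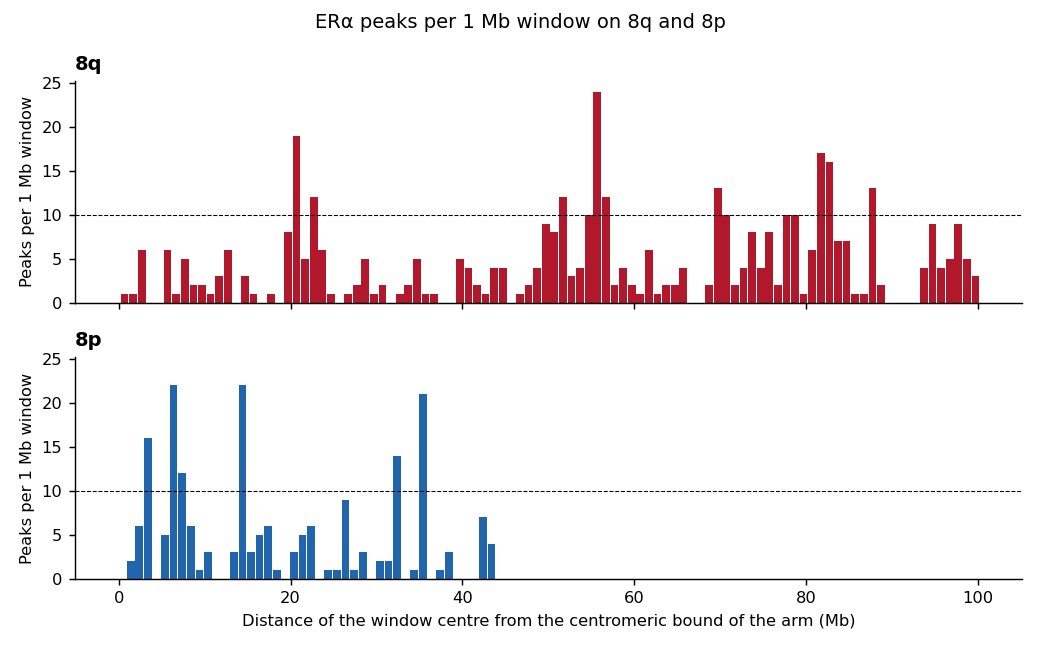
Bars give the number of ERα peak centres in each 1 Mb window of 8q (upper panel) and 8p (lower panel), against the distance of the window centre from the centromeric bound of the arm in Mb, and the dashed line marks 10 peaks. The fullest windows hold 24 peaks on 8q and 22 on 8p, and most of the full windows of 8q lie in the telomeric part.

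Windows rich in peaks were found on 8q at a share close to that of the genome. Of the 100 windows of 1 Mb on 8q, 13 held 10 or more peaks, or 13.0% (Wilson 95% interval 7.76 to 21.0%), against 6 of 44 windows on 8p, or 13.6% (6.40 to 26.7%). Over all windows of chromosomes 1 to 22 and X the share was 13.2%. The median window held 2.5 peaks on each arm. Windows with 0 peaks numbered 16 on 8q (16.0%, 10.1 to 24.4%) and 12 on 8p (27.3%, 16.3 to 41.8%), where the genome had 24.2%. Genome windows ran over whole chromosomes, centromeres included, so its share of empty windows is not a like measure. The 8q windows began at 47000001, and the last was cut by the chromosome end. On 8p the empty window from 43000001, cut by the arm bound, was counted. The fullest 8q window reached 24 peaks, and 23 windows of the genome held that many or more. The variance of the counts was 4.99 times their mean on 8q and 8.11 times on 8p.

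These 13 windows, called full windows here, held 178 of the 427 peaks, or 41.7%, in 8 separate places. The largest place was a run of 3 windows from 101000001 to 104000000, at 8q22.2 and 8q22.3, with 46 peaks. Its middle window, from 102000001, held 24 peaks, 15 of them at or above the list median and 17 with another peak centre within 10 kb. The 2 windows from 128000001 to 130000000, in 8q24.21, held 17 and 16 peaks, and 13 of the 16 in the second scored at or above that median. The window from 67000001 to 68000000, in 8q13.1, held 19 peaks, of which 7 were 1000 bp or wider and 2 scored 3100 or more. In that window 16 of the 19 peaks had a neighbour within 10 kb, the most crowded of the 13 by share.

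The other full windows held fewer peaks. Those from 116000001 and 117000001 held 13 and 10, of which 7 and 6 had a neighbour within 10 kb, those from 124000001 and 125000001 held 10 each, and those from 69000001 and 98000001 held 12 each. The window from 134000001 to 135000000, in 8q24.22, held 13 peaks spread over 608 kb in 11 separate regions. Its scores were low: their median was 72.31, 3 of the 13 peaks reached the median of the list and the highest was 859.57. The windows on either side held 1 and 2 peaks. The windows from 101000001 and 124000001 also had low median scores, 78.69 and 89.19. In the window from 98000001, by contrast, 9 of 12 peaks reached the median score.

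Peaks inside the full windows scored higher than those elsewhere on the arm. The windows were chosen by count, but no listed peak scored below 50, so count and score are not independent. The median score was 173.56 inside and 99.25 outside, and the share at or above the list median (50% of all peaks by construction) was 57.3% inside (49.96 to 64.3%) and 39.4% outside (33.5 to 45.5%). The difference was 17.9 percentage points, with a 95% interval from 8.34 to 27.1. Peaks of 1000 bp or more made up 13.5% inside (9.23 to 19.3%) and 5.62% outside (3.38 to 9.22%), a difference of 7.86 points (2.29 to 14.1).

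Score was the peak caller's own value and serves only to rank peaks within this list, with the order at the top unsettled, as set out below. The median score was 115.92 on 8q (quartiles 68.63 and 369.35), 148.61 on 8p and 128.67 on the rest. Of the 8q peaks, 200 (46.8%, 42.2 to 51.6%) reached the median of the list, against 107 on 8p (54.3%, 47.3 to 61.1%). The difference of -7.48 points has an interval from -15.7 to 0.955, which includes 0. Without the 10 fullest windows of 8q, and with 8p left whole, it was -14.2 points (-22.97 to -5.07). Windows with 10 peaks tied for the tenth place, and only the first of them along the arm was removed. The windows removed held 148 peaks. Full windows held the higher-scoring peaks of the arm, so their removal lowers the 8q share by design. Scores under 100 were held by 186 peaks on 8q (43.6%, 38.9 to 48.3%) and 74 on 8p (37.6%, 31.1 to 44.5%), where the whole list had 41.1%.

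Strong peaks, defined as scores of 3100 or more because 235 peaks of the list share the score 3100, numbered 9 on 8q (2.11%, 1.11 to 3.96%), 5 on 8p (2.54%, 1.09 to 5.80%) and 2.12% of the whole list. The highest on 8q lay in 8q13.1 at 67434165 to 67435291, with a score of 3209.00 and a width of 1127 bp. The second lay in 8q22.3 at 103612690 to 103614417, with a score of 3202.57 and a width of 1728 bp. The other 7 scored exactly 3100 and cannot be ranked among themselves. So many peaks share that value, on a scale not stated, that scores just above it may not mean stronger peaks. The order of these 7 against the first and second is therefore not settled. They lay at 67036005 to 67037312 in 8q13.1, at 69765465 to 69767208 in 8q13.2, at 102478702 to 102479632 in 8q22.3 and at 143627710 to 143628634 in 8q24.3, and 3 of them were in 8q24.21. The tenth-ranked peak, at 116878870 to 116880211 in 8q23.3, scored 2888.40.

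In 8q24.21 the strong peaks at 128877852 to 128880986 and at 128882002 to 128883508 had centres 3.34 kb apart, and the third ran from 129153864 to 129155131. Of the 9 strong peaks, 8 lay in the full windows and 7 had another peak centre within 10 kb. The exception to the first count was the peak in 8q24.3, whose window held 5 peaks and whose nearest neighbour was 41.3 kb away.

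Peaks on 8q were wider than those on 8p. The median width was 552 bp on 8q (quartiles 450.5 and 706.5), 514 bp on 8p (403.0 and 593.0) and 503 bp on the rest (411.0 and 642.0). Peaks of 1000 bp or more numbered 38 on 8q (8.90%, Wilson 95% interval 6.55 to 12.0%), 7 on 8p (3.55%, 1.73 to 7.15%) and 666 on the rest (5.45%, 5.06 to 5.87%), and made up 5.56% of the whole list. The difference from 8p was 5.35 points (1.05 to 8.92) and that from the rest 3.45 points (1.07 to 6.55). Without 5 very wide peaks of 8q21.2, described below, the share on 8q was 7.82%. The differences were then 4.27 points (0.050 to 7.74) and 2.37 points (0.133 to 5.35). Of the 38 wide peaks, 24 lay in the full windows, 20 had a neighbour within 10 kb, and 32 reached the median score of the list.

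The 8q peaks also had the higher median width when peaks of like score were compared. In the lowest quartile of scores the median width was 458 bp on 8q (n = 111), 380 bp on 8p (n = 44) and 398 bp on the rest. In the second quartile it was 498.5 bp on 8q (n = 116), 455 bp on 8p (n = 46) and 454 bp on the rest. In the third quartile it was 606 bp on 8q (n = 89), 521 bp on 8p (n = 45) and 529 bp on the rest. In the highest quartile it was 708 bp on 8q (n = 111), 664.5 bp on 8p (n = 62) and 688 bp on the rest. The quartile ranges of the 3 sets overlapped in every class. Among scores from 100 up to the upper quartile of the list, 8 of 130 peaks on 8q and 0 of 61 on 8p were 1000 bp or wider. That difference of 6.15 points has an interval from -0.488 to 11.7, which includes 0.

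**Figure D2:**
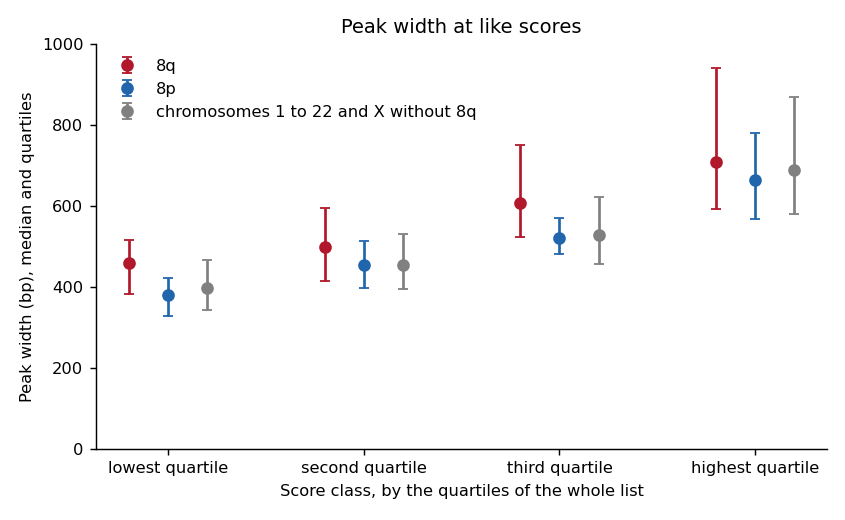
Points give the median peak width in bp and bars its quartiles, for 8q, 8p and chromosomes 1 to 22 and X without 8q, in 4 classes cut at the quartiles of the score over the whole list. The 8q medians of 458, 498.5, 606 and 708 bp are the highest of the 3 in every class, and the quartile bars overlap.

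The widest peak of the whole list lay on 8q, and it was a weak one. It ran from 86809525 to 86819075 in 8q21.2, 9551 bp, with a score of 93.38. The next widest of the arm were its neighbours at 86833863 to 86840941 (7079 bp, score 93.93) and at 86726430 to 86733317 (6888 bp, score 95.43). Together with peaks at 86769901 to 86772134 (2234 bp, score 61.32) and at 86554805 to 86556794 (1990 bp, score 63.04) they were all 5 peaks of that band. Each was wide and each scored under 100, which is the reverse of the rest of the arm, where width and score went together (Spearman correlation across peaks 0.626 without these 5, 0.600 with them).

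These 5 peaks were 1.17% of the 8q peaks but 9.66% of the sequence that 8q peaks covered. They spanned 286 kb and no 2 of them were closer than 23.1 kb from centre to centre. A width of 1500 bp or more with a score under 100 was found in 30 peaks of the whole list, of which these were 5, and 8p had 0. Band 8q21.2 is known for a tandem array of REXO1L gene copies, and the GRCh38.p14 RefSeq table lists 11 REXO1L entries on chromosome 8. Whether the peaks lie in that array was not tested, and they are not shown to be receptor binding sites.

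**Figure D3:**
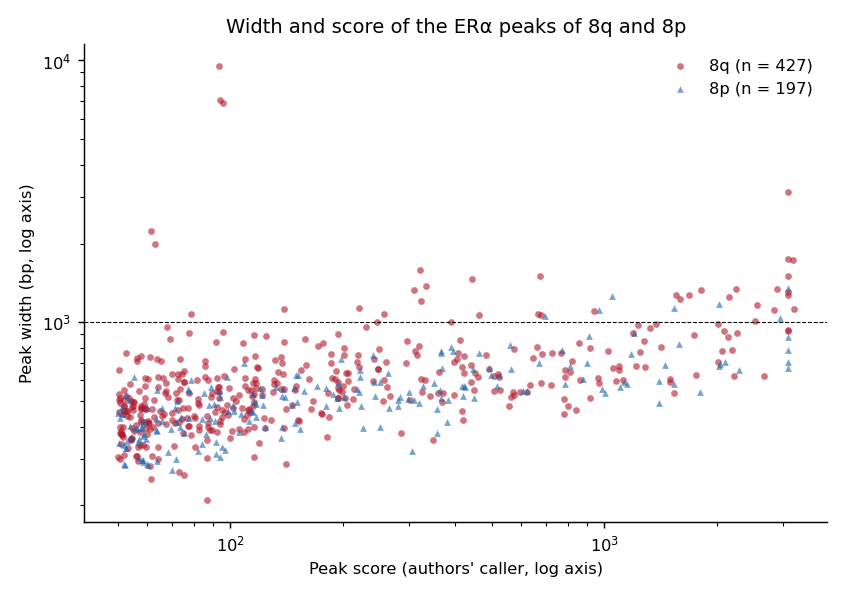
Each point is a peak of 8q (circles) or 8p (triangles), placed by its score and its width in bp, both on log axes, with a dashed line at 1000 bp. Width goes with score on both arms, except for 5 circles of 1990 to 9551 bp that score under 100, and a column of points stands at the score 3100.

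Nearly all remaining wide peaks of 8q scored high. The widest of them, at 128877852 to 128880986 in 8q24.21, measured 3135 bp and scored 3100. Peaks at 69765465 to 69767208 (1744 bp), at 103612690 to 103614417 (1728 bp) and at 128882002 to 128883508 (1507 bp) were also among the 9 strong peaks. The peak at 69534071 to 69535653 in 8q13.2 measured 1583 bp with a moderate score of 320.81. Of the 33 wide peaks outside 8q21.2, 32 reached the median score of the list, and their median score was 1550.55, against 111.22 for the 389 narrower peaks of the arm.

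ERα peaks on 8q had close neighbours less often than those on 8p. Another peak centre lay within 10 kb for 142 of 427 peaks on 8q (33.3%, Wilson 95% interval 29.0 to 37.9%), 94 of 197 on 8p (47.7%, 40.9 to 54.7%) and 5092 of 12220 on the rest (41.7%, 40.8 to 42.5%), the share over chromosomes 1 to 22 and X being 41.4%. The difference from 8p was -14.5 points (-22.6 to -6.20) and that from the rest -8.41 points (-12.8 to -3.73). With peaks of a score of 100 or more alone, the difference from 8p was -7.47 points (-17.9 to 2.79) and that from the rest -5.36 points (-11.1 to 0.883), so both intervals then include 0. With peaks at or above the median score, the difference from 8p was -7.01 points (-18.1 to 3.70), which includes 0. That from the rest was -7.62 points (-13.6 to -0.898), which does not. The median distance to the nearest peak was 26.7 kb on 8q (quartiles 5.64 and 84.1 kb), 13.5 kb on 8p and 16.7 kb on the rest.

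Against both 8p and the rest, the shortfall sat mostly between 2 and 5 kb. The nearest peak lay at that distance for 30 peaks on 8q (7.03%, 4.97 to 9.85%), 41 on 8p (20.8%, 15.7 to 27.01%) and 12.9% of the rest (12.3 to 13.5%). Up to 2 kb the shares were 15.7% on 8q (12.5 to 19.4%), 17.3% on 8p (12.6 to 23.1%) and 18.9% on the rest (18.3 to 19.6%). The 8q share was lower there, but its interval overlaps both others. From 5 to 10 kb they were 10.5% on 8q, 9.64% on 8p and 9.81% on the rest. The distance classes were not corrected for the number compared.

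**Figure D4:**
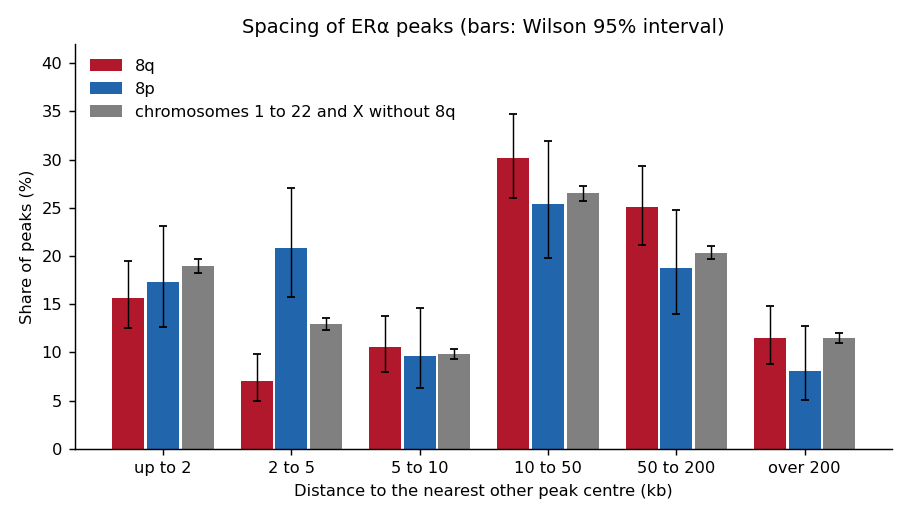
Bars give the share of peaks, in percent, whose nearest other peak centre lies in each distance class in kb, for 8q, 8p and chromosomes 1 to 22 and X without 8q, with Wilson 95% intervals. From 2 to 5 kb the 8q bar stands at 7.03%, against 20.8% on 8p and 12.9% on the rest, and its interval overlaps neither.

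When peaks whose edges lay within 10 kb were joined, 280 of the 331 regions on 8q held a single peak, 51 had 2 or more peaks, and the 5 regions with at least 5 peaks took in 31. On 8p, 37 of 138 regions had 2 or more peaks, 3 of them at least 5. Peaks with a neighbour within 10 kb scored higher on 8q, with 58.5% (50.2 to 66.2%) at or above the list median, than peaks without one, with 41.1% (35.5 to 46.8%). On 8p these shares were 62.8% (52.7 to 71.9%) with a neighbour and 46.6% (37.3 to 56.2%) without.

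The largest cluster held 9 peaks in 37.9 kb at 102449063 to 102486999, in 8q22.3. From the centromeric side their scores were 1020.29, 221.57, 93.57, 217.91, 81.98, 573.87, 3100.00, 109.15 and 403.64. Of these, 6 reached the list median and 1 was strong. The gaps between centres ran from 0.944 to 9.38 kb with no even spacing (coefficient of variation 67.4%). A further group of 4 peaks followed at 102516218 to 102528317, with a median score of 1024.70.

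The second cluster, at 67424368 to 67438770 in 8q13.1, held 6 peaks in 14.4 kb and includes the highest-scoring peak of the arm. Their scores were 1815.44, 131.22, 108.43, 3209.00, 139.65 and 396.29. In the same band, 5 peaks lay within 9.51 kb at 66931165 to 66940675, with a top score of 2013.14. These 2 clusters are 484 kb apart, with a strong peak at 67036005 to 67037312 between them.

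Both other clusters of 5 or more were in 8q24.21. The one at 128800921 to 128832762 held 6 peaks, with scores of 77.64, 95.90, 171.71, 1591.28, 50.56 and 323.87. The one at 129145936 to 129165791 held 5 peaks, with scores of 857.34, 482.59, 3100.00, 101.91 and 1097.71. The 2 adjacent strong peaks of 8q24.21 belonged to neither of these, but to a group of 4 at 128871549 to 128889436 whose 4 peaks all reached the median score, with a median of 2674.44.

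**Figure D5:**
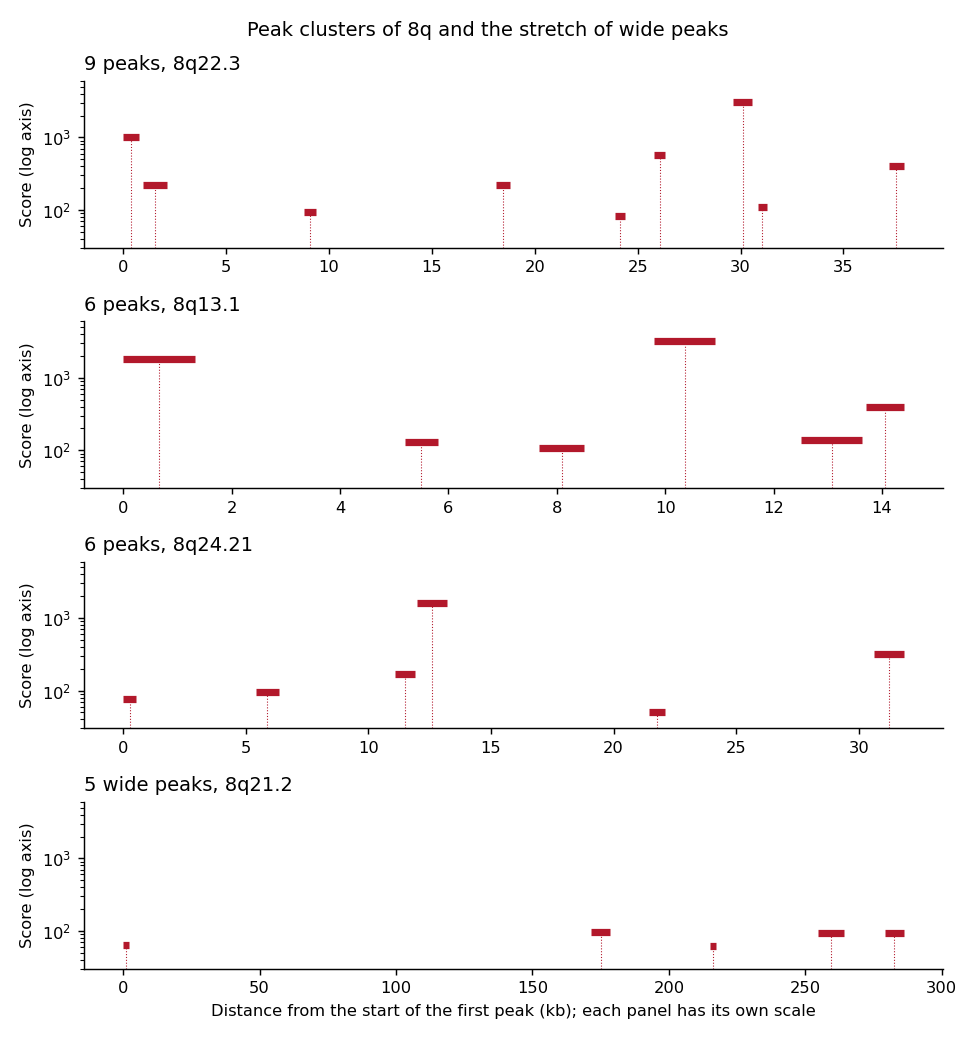
The panels show the 3 largest clusters of 8q and the 8q21.2 stretch, with each peak as a horizontal line as long as the peak is wide, at the height of its score (log axis), against the distance in kb from the start of the first peak. The highest peaks of the 3 clusters score 3100.00, 3209.00 and 1591.28 beside weaker ones, whereas the 5 peaks of 8q21.2 all score between 61.32 and 95.43.

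The longest stretch of 8q between neighbouring peaks ran from 135890331 to 140384914, 4.49 Mb, and takes in the whole of 8q24.23. It begins in 8q24.22 and ends in 8q24.3, and its flanking peaks scored 50.85 and 92.32. The next were 2.72 Mb from 83835124 to 86554804, which ends at the first of the wide 8q21.2 peaks, and 2.41 Mb from 49834891 to 52244671. Stretches of 2.36 Mb from 112794495 to 115157815 and of 2.31 Mb from 64434352 to 66744950 followed, and the one named last ends within the dense band 8q13.1. In all, 6 stretches of over 2 Mb took up 16.5 Mb of 8q. Unmappable sequence was not marked, and the absence of listed peaks does not show that binding was absent.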

How the data were processed

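The authors deposited 1 list of ERα peaks called against input. Peak names begin with MACS, per the file, and HOMER, Bowtie 0.12.9, CASAVA 1.8 and hg19 are listed without their roles, per the submitters' processing notes. The sources used here do not give the calling threshold or the handling of duplicate and multi-mapping reads. The score of each peak is the authors' own, on a scale not stated. Starts are counted from 0 in the deposited file, and 1 was added for printing. No read counts were used, so the depth is unknown.

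Peaks were counted in windows by their centres. Chromosome lengths and bands of hg19 came from the R package circlize 0.4.16. Densities have exact Poisson intervals, ratios exact conditional intervals, shares Wilson intervals and differences of shares Newcombe intervals, all at 95%. With 1 library of each kind no p-value is given. The functions were tested on simulated data. Named items were the 10 highest-scoring and 10 widest peaks, the 10 fullest windows with ties, the 5 largest clusters and the 5 longest peak-free stretches; other items, including the segments, bands and the 8q21.2 stretch, were chosen after their values were seen. The peaks and lists described were chosen with earlier results of these data known. Software was SciPy 1.17.1, pandas 2.3.3 and NumPy 2.4.6 under Python 3.11.15, with matplotlib 3.10.9 for figures.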

Additional observations from a re-analysis of the deposited data

How the results depend on the processing

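Of 50 recomputed values, 38 stayed within the main interval, 12 moved outside it and 0 changed direction where the main interval excluded equality. Arm lengths without the peak-free stretches above 2 Mb moved the density ratio of 8q to 8p to 0.745 and to the rest to 0.923. The share of 8q windows with 10 or more peaks fell to 4.0% with peaks at or above the median score, to 5.0% with scores of 100 or more and to 5.0% after merging within 10 kb, each of which leaves fewer peaks to count. The 10 fullest windows held 34.7% of the 8q peaks, and 46.0%, 44.4% and 29.9% in those 3 settings. Here 10 windows were taken, with ties at the tenth place broken by position, so they are fewer than the full windows. For wide peaks, the difference from 8p was 9.46 points with peaks at or above the median score and 10.7 points at 750 bp or more, and the difference from the rest 6.64 points with peaks at or above the median score. Without the 10 fullest windows of 8q, its share at or above the median score differed from 8p by -14.2 points (-22.97 to -5.07). The difference from the rest was then -9.97 points (-15.6 to -4.06). No windows were removed from 8p or the rest, and the full windows held the higher-scoring peaks of 8q. A lower 8q share was thus built into this setting, and no conclusion is drawn from these intervals. For centres 2 to 10 kb apart, the difference in spacing from the rest was -4.41 points with an interval that includes 0 (-8.53 to 0.105). Removal of the 5 peaks of 8q21.2 was added after seeing the data. No paired analysis was possible because 1 ERα library and 1 input library were used. The unknown depth limits which weak sites entered the list.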

Other observations

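Among the 23 long arms, each without its centromeric bands except for 8q, which was taken as above, 8q ranked 15th in peak density. The intervals of 11 arms lay wholly above that of 8q, those of 6 wholly below it, and those of 5 overlapped it. Only centromeric bands were left out, so any other heterochromatic band stayed in the lengths. The density rank and these counts may therefore rest on unlike lengths. It ranked 6th for the share of peaks of 1000 bp or more, behind 16q (14.9%), 3q (13.5%), Xq (13.1%), 20q (12.6%) and 17q (12.0%). For scores from 100 up to the upper quartile of the list, its median width of 578 bp (n = 130) ranked 3rd, behind 20q (620.5 bp, n = 106) and 17q (609 bp, n = 179). It ranked 21st for the share of peaks with a neighbour within 10 kb, with 33.3%, and 13q (29.5%) and 4q (28.6%) came after it. Wide peaks are thus not particular to 8q, and the ranks carry no test.

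The most isolated peak of 8q lay at 64433982 to 64434351 in 8q12.3, 1.47 Mb from the next peak, with a score of 78.37. The next most isolated, at 83834784 to 83835123 in 8q21.13 and at 62964078 to 62964421 in 8q12.3, scored 57.23 and 50.99. All 3 were below the median score of the list.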
